A study of Gallus gallus with 13 samples.

Results

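The mitochondrial ribosomal protein genes of chicken are taken here as the genes whose symbol in the array annotation begins with MRPL or MRPS. The annotation gave 96 probe sets such a symbol as their only symbol, and they stood for 67 genes of 13008 with a symbol of their own on the array. Each gene was read from its probe set with the highest mean. Of the 67 genes, 65 passed a filter on low signal and were tested. MRPL30 and MRPL34 did not pass, with signals of 6.29 to 20.8 and 9.44 to 25.3 over the 13 arrays. RNA came from primary chicken embryo fibroblasts, cells grown out of White Leghorn embryos at day 10 and kept for fewer than 10 passages at 41.5 °C in medium with insulin and zinc. Contact-inhibited cells (4 arrays) had reached 100% confluence and received fresh medium with 5% serum. Serum-starved cells (3 arrays) had been cycling and were washed and moved to medium without serum. Confluent and starved cells (3 arrays) had reached 100% confluence before serum was removed. Cycling cells (3 arrays) were collected in log phase with 5% serum. The labels give no time spent in each state. They call the arrays of a group biological replicates without saying whether separate embryos were used, and the p-values speak for the spread among these 13 arrays alone.

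Mitochondria hold their own ribosome, which makes a small set of inner membrane proteins of the respiratory chain and the ATP synthase from messages of the mitochondrial genome. Its RNA is encoded in the mitochondrion, while its proteins are encoded in the nucleus, made in the cytosol and imported. Some of the proteins have a counterpart in the bacterial ribosome, and others are found only in mitochondria. The large subunit joins amino acids, and the small subunit reads the message. By the uniform ribosomal protein names, 45 of the 67 genes encode large subunit proteins, MRPS18A and MRPS30 among them in spite of their symbols, and 21 encode small subunit proteins. MRPS36 is now known as a part of the oxoglutarate dehydrogenase complex, and it was kept because its symbol meets the rule.

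All 14 fibroblast markers had signal above the filter, and their summed signal was 130300 to 142000 in contact-inhibited, 136500 to 148700 in serum-starved, 138400 to 146200 in confluent and starved, and 124200 to 131800 in cycling arrays. Of the 14, 1 was lower and 3 higher in contact-inhibited, 0 and 4 in serum-starved, and 0 and 6 in confluent and starved cells. The cartilage list (8 of 9 genes on the array above the filter) summed to 3197 to 4803, 4225 to 4659 and 4444 to 5079 in those arrested groups, against 12670 to 14030 in cycling arrays. The epithelial list (4 of 6 genes on the array above the filter) summed to 633 to 1199, 797 to 1551 and 755 to 775, against 4068 to 5138 in cycling arrays, although the defining epithelial genes EPCAM and CDH1 lay below the filter. The genes within each of these lists differed in direction or in call. Of the 8 tested cartilage genes 2 were lower and 4 higher in contact-inhibited, 3 lower and 2 higher in serum-starved, and 3 lower and 1 higher in confluent and starved cells. COL2A1, the main collagen of cartilage, was at -3.52, -3.87 and -3.78 in those groups, while ACAN, the proteoglycan of its matrix, was at 3.44 in contact-inhibited cells. Of the 4 tested epithelial genes KRT7, a keratin, was the one called in each group (-3.32, -2.46 and -3.60). The skeletal muscle list (9 of 10) summed to 1587 to 3562, 2194 to 2803 and 5000 to 5440, against 5900 to 7795. Of its 9 genes ACTA1, skeletal muscle actin, was lower in contact-inhibited (-2.23) and serum-starved cells (-1.61), CHRNA1 was higher in contact-inhibited (0.69) and in confluent and starved cells (0.53), and no other call was made. The endothelial list (8 of 10) summed to 1530 to 2130, 1798 to 2110 and 2066 to 2422, against 1158 to 1410. Its 8 tested genes differed in direction, with 2, 1 and 1 lower and 1, 2 and 2 higher in those groups. The blood list (6 of 7) summed to 695.9 to 772.9, 618.3 to 716.7 and 633.2 to 672.9, against 516.4 to 634. Of its 6 tested genes 2, 1 and 1 were higher in those groups and 0 lower. The neural list (7 of 9) summed to 359.5 to 387.1, 400.7 to 424.7 and 441.8 to 474.6, against 311.5 to 402.1. Of its 7 tested genes 1 was higher in each group and 0 lower. The mean log2 signal of 22 probe sets of the female W chromosome was 6.28 for the first contact-inhibited array, against 7.19 to 7.31 for its 3 fellow arrays. It was 5.98 to 6.66 in serum-starved and 6.11 to 6.16 in confluent and starved arrays, against 7.07 to 7.12 in cycling arrays. HINTW, a gene of that chromosome, had 84.3, 1311, 1188 and 1197 in contact-inhibited and 428, 0 and 3.08 in serum-starved arrays. It had 0, 0.85 and 0.83 in confluent and starved arrays, against 2646, 2835 and 3358 in cycling arrays. Between starved and cycling arrays, serum removal and W-linked level cannot be told apart. Apart from contact-inhibited replicate 1, the same holds between starved and contact-inhibited arrays, and where confluence with serum is set against confluence without it. Cycling replicate 3 had the highest ratio of 3' to 5' actin signal, 2.41 against 1.27 to 1.89 on the other arrays. The part of these differences in the results below was not tested beyond the fits named there.

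The comparison of contact-inhibited with cycling cells asks how these transcripts differ after growth to confluence with serum present. In contact-inhibited cells 27 of the 65 tested genes were lower and 2 higher, at an adjusted p under 0.05 from limma across all probe sets. Over all 28270 tested probe sets, 34.8% were called, 4513 or 16% lower and 18.8% higher. These include dim probe sets, while each gene was read from its probe set with the highest mean. The shares here and below are therefore not matched for brightness. Of the 33 brighter members 14, 15 and 14 were lower in contact-inhibited, serum-starved, and confluent and starved cells. Of the 32 dimmer ones 13, 6 and 9 were lower. The median change of the 65 genes was -0.20 on the log2 scale, against 0.07 over all probe sets. Of the lowered genes 17 were at least 1.5-fold lower and 4 at least 2-fold lower. At an unadjusted p under 0.05 from limma, 29 were lower and 6 higher, against 43.9% of all probe sets in either direction. Array weights in limma gave 7 higher, and quantile normalization gave 5. Without cycling replicate 3 and contact-inhibited replicate 1 there were 7 higher, and with each array centred on its median 0. The share of all probe sets called was not counted under these alternatives, here or below. In 29 genes every contact-inhibited array lay below every cycling array, a pattern found for 17.0% of all probe sets. In whole-culture RNA, a lower signal from fewer cells of a kind and one from less RNA per cell cannot be told apart.

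Among the large subunit genes with a bacterial counterpart, MRPL20, whose bacterial relative acts early in the assembly of the large subunit, had the largest change of the 65. Its signal was 767, 900, 761 and 944 in contact-inhibited, 1525, 1421 and 1300 in serum-starved, 1373, 1265 and 1162 in confluent and starved, and 2110, 1962 and 2255 in cycling arrays. All arrested arrays lay below all cycling arrays, and the contact-inhibited arrays were the lowest. The change in contact-inhibited cells was -1.31 ± 0.11 (log2 ± SE, adjusted p = 2.47e-06), or 2.48-fold lower. A dimmer probe set of MRPL20 was called higher in the same comparison (0.39), so the direction rests on the brighter one. MRPL27, whose bacterial relative reaches towards the site where peptide bonds form, had 920, 1142, 930 and 1092 in contact-inhibited, 1490, 1232 and 1117 in serum-starved, 1099, 1066 and 958 in confluent and starved, and 2215, 2230 and 2484 in cycling arrays. All arrested arrays lay below all cycling arrays. Its change in contact-inhibited cells was -1.17 ± 0.12 (adjusted p = 1.23e-05), or 2.25-fold lower.

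MRPL3, a relative of the bacterial protein L3 near the peptidyl transferase centre, had 1144, 1440, 1369 and 1433 in contact-inhibited, 2294, 1860 and 1582 in serum-starved, 1465, 1439 and 1545 in confluent and starved, and 2445, 2554 and 2582 in cycling arrays. The groups did not overlap with cycling cells, and the serum-starved arrays spread the widest. Its change in contact-inhibited cells was -0.91 ± 0.12 (adjusted p = 0.000104). MRPL19, whose bacterial relative lies where the subunits meet, had 72.5, 90.6, 85.6 and 111 in contact-inhibited, 241, 212 and 187 in serum-starved, 147, 141 and 149 in confluent and starved, and 190, 200 and 256 in cycling arrays. Contact-inhibited arrays were the lowest, confluent and starved arrays lay between, and serum-starved arrays overlapped with cycling ones. Its change in contact-inhibited cells was -1.13 ± 0.15 (adjusted p = 8.74e-05). MRPS18A, which sits in the large subunit and is classed by its uniform name as found only in mitochondria, had 979, 930, 823 and 753 in contact-inhibited, 965, 1009 and 952 in serum-starved, 991, 943 and 861 in confluent and starved, and 1406, 1495 and 1374 in cycling arrays. The 3 arrested groups overlapped with each other and stood apart from cycling cells. Its change in contact-inhibited cells was -0.71 ± 0.11 (adjusted p = 0.000285).

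MRPS36 had 1074, 1112, 1056 and 1097 in contact-inhibited, 1698, 1544 and 1470 in serum-starved, 1390, 1315 and 1257 in confluent and starved, and 1699, 1656 and 1681 in cycling arrays. Only the serum-starved group overlapped with cycling cells. The change in contact-inhibited cells was -0.62 ± 0.09 (adjusted p = 0.000139). The other genes lowered in contact-inhibited cells were MRPL12, MRPL15, MRPL18, MRPL23, MRPL28, MRPL39, MRPL45, MRPL46, MRPL47, MRPL48, MRPL51, MRPL54 and MRPS30 of the large subunit and MRPS7, MRPS9, MRPS22, MRPS25, MRPS26, MRPS27, MRPS31 and MRPS35 of the small one. The changes of all 27 lay between -0.36 and -1.31. MRPL12, which also binds the mitochondrial RNA polymerase in human cells, fell by 0.56 on the log2 scale although its arrays overlapped with cycling ones.

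MRPL44, a large subunit protein with a ribonuclease III fold, and MRPS2, a small subunit protein with a bacterial counterpart, went the other way. MRPL44 had 2222, 2174, 2326 and 2283 in contact-inhibited, 1661, 1727 and 1553 in serum-starved, 1804, 1678 and 1858 in confluent and starved, and 1620, 1765 and 1887 in cycling arrays. MRPS2 had 648, 708, 609 and 644 in contact-inhibited, 488, 468 and 385 in serum-starved, 575, 584 and 553 in confluent and starved, and 421, 467 and 594 in cycling arrays. For both genes every contact-inhibited array was above every cycling array, by little in MRPS2, and the starved groups overlapped with cycling cells. The changes in contact-inhibited cells were 0.36 ± 0.09 for MRPL44 (adjusted p = 0.00651) and 0.40 ± 0.13 for MRPS2 (adjusted p = 0.0316). Neither passed with centred arrays, in which each array's median is set equal (0.24 and 0.29, adjusted p = 0.137 and 0.19). MRPS2 also missed the threshold without contact-inhibited replicate 2 or 4 or cycling replicate 1 or 2 (adjusted p = 0.0805, 0.0529, 0.136 and 0.0935).

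**Figure D1:**
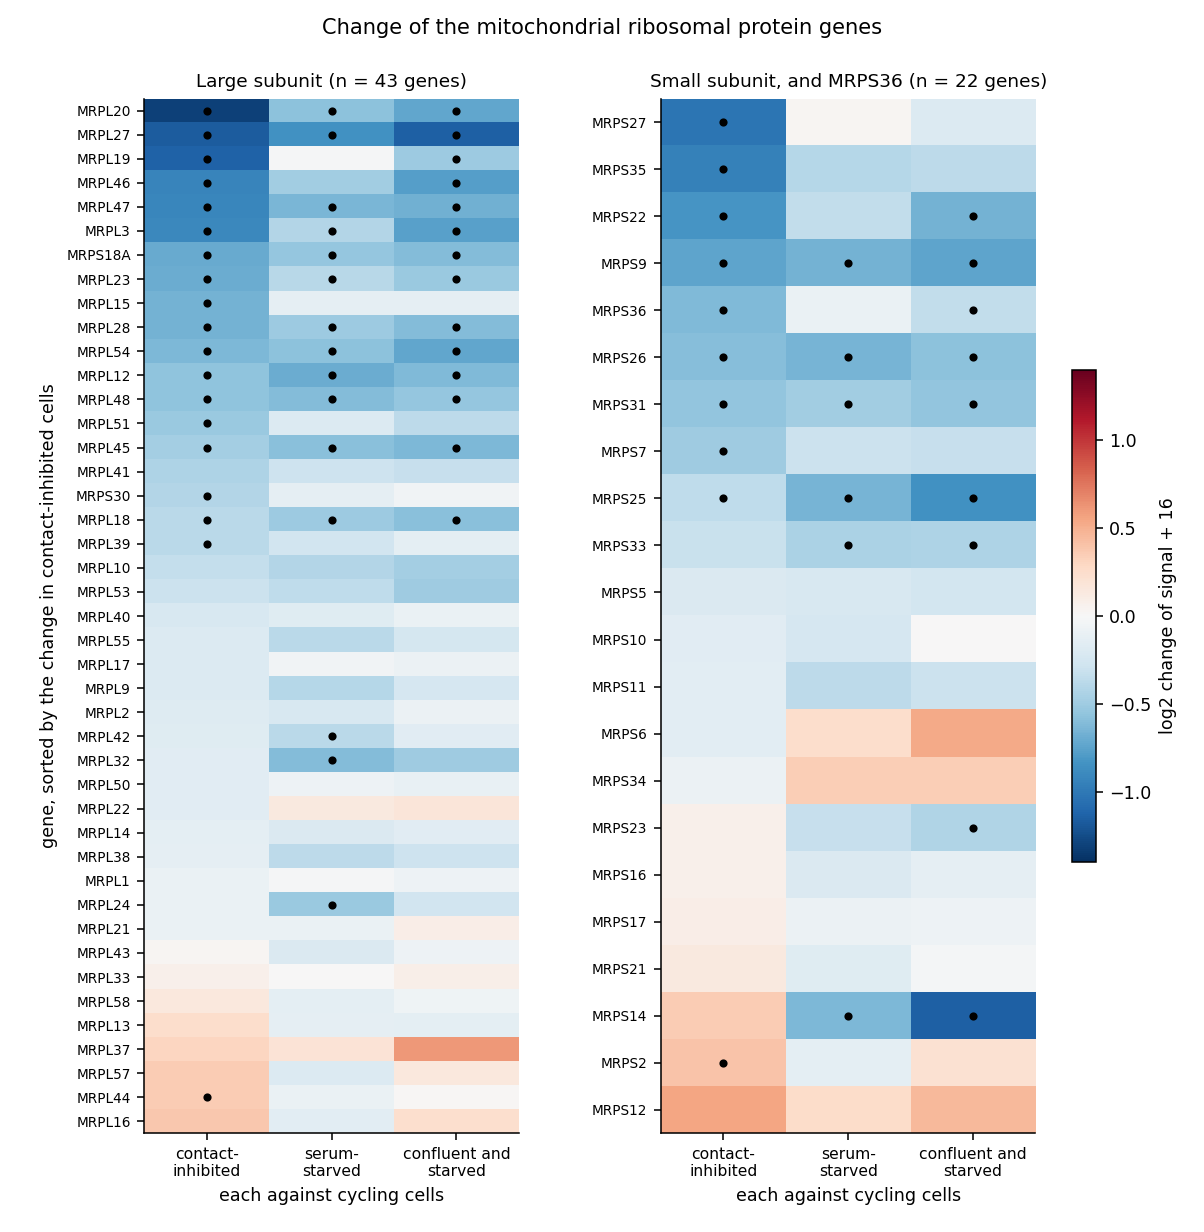
Each row is 1 of the 65 tested genes and each column a group compared with cycling cells, with colour giving the log2 change of signal + 16 and a black dot an adjusted p under 0.05 (limma). Dots fall on blue cells, 27, 21 and 23 of them, apart from the 2 on red cells for MRPL44 and MRPS2 in contact-inhibited cells.

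Serum-starved cells had 21 of the 65 genes lower than cycling cells, against 6.53% of all probe sets called lower and 16.7% called in either direction. None was called higher, at an unadjusted p under 0.05 either, against 10.1% of all probe sets called higher. Array weights in limma also gave 0 higher. The median change was -0.29, against 0.05 over all probe sets, and no gene was called 2-fold lower. In 30 genes the groups did not overlap in the lower direction, against 14.5% of all probe sets. MRPL27 was again among the lowest, at -0.85 ± 0.13 (adjusted p = 0.000664), with MRPL20 at -0.57 ± 0.12 (adjusted p = 0.00601). With the mean of all probe sets in its place, MRPL20 no longer passed (-0.19, adjusted p = 0.26). The count was 12 without serum-starved replicate 2 and likewise without replicate 3. It was 6 with the W-linked level as a covariate, with a median change of -0.21. That level was lower in every starved array than in every cycling array. The fit with it therefore cannot separate it from serum removal, here or in confluent and starved cells.

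MRPS25, a small subunit protein found only in mitochondria, had 961, 1088, 1002 and 993 in contact-inhibited, 928, 767 and 777 in serum-starved, 686, 689 and 772 in confluent and starved, and 1222, 1198 and 1493 in cycling arrays. Each arrested group lay below cycling cells, and the starved groups also lay below the contact-inhibited one. The change in serum-starved cells was -0.65 ± 0.12 (adjusted p = 0.00302). MRPS9, whose bacterial relative touches the transfer RNA in the head of the small subunit, had 461, 565, 560 and 602 in contact-inhibited, 659, 550 and 525 in serum-starved, 567, 569 and 495 in confluent and starved, and 880, 875 and 1007 in cycling arrays. The arrested groups overlapped with each other and not with cycling cells. Its change in serum-starved cells was -0.66 ± 0.14 (adjusted p = 0.00533).

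MRPL48 and MRPL54 are large subunit proteins found only in mitochondria. MRPL48 had 799, 747, 695 and 791 in contact-inhibited, 768, 781 and 653 in serum-starved, 812, 765 and 726 in confluent and starved, and 1121, 1048 and 1201 in cycling arrays. MRPL54 had 1534, 1619, 1496 and 1452 in contact-inhibited, 1669, 1601 and 1469 in serum-starved, 1434, 1359 and 1454 in confluent and starved, and 2114, 2148 and 2893 in cycling arrays. In both genes the arrested arrays lay together below the cycling arrays, of which replicate 3 was the highest. The changes in serum-starved cells were -0.61 ± 0.12 for MRPL48 (adjusted p = 0.00312) and -0.58 ± 0.12 for MRPL54 (adjusted p = 0.00575). With the W-linked covariate MRPS25, MRPS9, MRPL54 and MRPL20 did not pass in serum-starved cells (adjusted p = 0.0718, 0.171, 0.0591 and 0.137). The other genes lower in serum-starved cells were MRPL3, MRPL12, MRPL18, MRPL23, MRPL24, MRPL28, MRPL32, MRPL42, MRPL45, MRPL47, MRPS14, MRPS18A, MRPS26, MRPS31 and MRPS33. All 21 changes lay between -0.37 and -0.85.

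Confluent and starved cells had 23 of the 65 genes lower than cycling cells, against 12.1% of all probe sets called lower and 29.7% called in either direction. None was called higher, against 17.5% of all probe sets called higher, while array weights in limma gave 4 higher. At an unadjusted p under 0.05 from limma, 30 were lower and 2 higher, against 40.7% of all probe sets in either direction. The median change was -0.27, against 0.05 over all probe sets, with 14 genes called at least 1.5-fold lower and 2 at least 2-fold lower. In 34 genes the groups did not overlap in the lower direction, against 5655 or 20% of all probe sets. The smallest adjusted p belonged to MRPL27 (-1.14 ± 0.13, adjusted p = 3.73e-05). MRPS25 was at -0.85 ± 0.12 (adjusted p = 0.000238), MRPL20 at -0.73 ± 0.12 (adjusted p = 0.000617), MRPL54 at -0.73 ± 0.12 (adjusted p = 0.000613) and MRPL3 at -0.76 ± 0.13 (adjusted p = 0.000853). MRPL3 did not pass with the mean of all its probe sets (-0.36, adjusted p = 0.077) or with the W-linked covariate (-0.38, adjusted p = 0.0961), and that covariate left 14 of the 65 genes called, 12 lower and 2 higher.

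MRPS14, whose bacterial relative lies in the head of the small subunit, had an order of groups unlike the genes above. It had 566, 500, 516 and 427 in contact-inhibited, 323, 184 and 247 in serum-starved, 177, 178 and 148 in confluent and starved, and 371, 445 and 354 in cycling arrays. The contact-inhibited arrays were the highest and overlapped with cycling cells in replicate 4 alone, while each starved group lay wholly below cycling cells. The change was -1.14 ± 0.18 in confluent and starved cells (adjusted p = 0.000516) and -0.63 ± 0.18 in serum-starved cells (adjusted p = 0.0332). In contact-inhibited cells it was 0.35 ± 0.17 and did not pass (adjusted p = 0.136). The remaining genes lowered in confluent and starved cells were MRPL12, MRPL18, MRPL19, MRPL23, MRPL28, MRPL45, MRPL46, MRPL47, MRPL48, MRPS9, MRPS18A, MRPS22, MRPS23, MRPS26, MRPS31, MRPS33 and MRPS36. All 23 changes lay between -0.34 and -1.14.

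The 3 comparisons with cycling cells share the same 3 cycling arrays, so a high or low cycling array moves all of them. Over the 65 genes, cycling replicate 3 was higher than the mean of cycling replicates 1 and 2 by a median of 0.18 on the log2 scale, against -0.04 over all probe sets. Without it, 27 genes were called in contact-inhibited cells (22 lower, 5 higher), 14 in serum-starved cells (14 lower) and 22 in confluent and starved cells (21 lower, 1 higher). Array by array, the median of the 65 genes against their cycling mean was -0.33, -0.25, -0.32 and -0.26 in contact-inhibited, -0.15, -0.33 and -0.40 in serum-starved, -0.24, -0.31 and -0.29 in confluent and starved, and -0.07, -0.05 and 0.12 in cycling arrays. Every arrested array lay below every cycling array by this median. Centring each array on its median moved the median of all probe sets by -0.12 in contact-inhibited, -0.12 in serum-starved and -0.10 in confluent and starved cells. Set against the median of all probe sets, that of the 65 genes was -0.27, -0.35 and -0.32 in those groups as deposited. It was -0.19, -0.28 and -0.32 after quantile normalization. Centring takes the same value from every probe set of an array, so it cannot alter this difference.

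**Figure D2:**
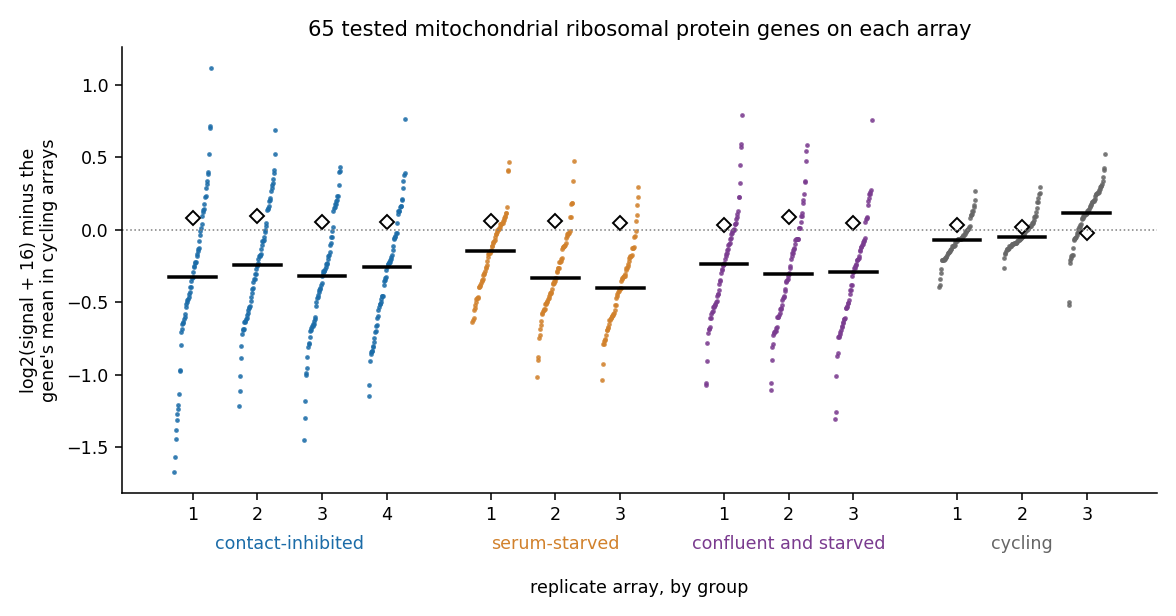
For each of the 13 arrays, points give the 65 genes as log2(signal + 16) minus the gene's mean in cycling arrays, sorted, with a black line at their median and an open diamond at the median of all tested probe sets. The lines lie at -0.15 to -0.40 in the 10 arrested arrays and at -0.07 to 0.12 in the cycling arrays, while the diamonds lie near 0 throughout.

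**Figure D3:**
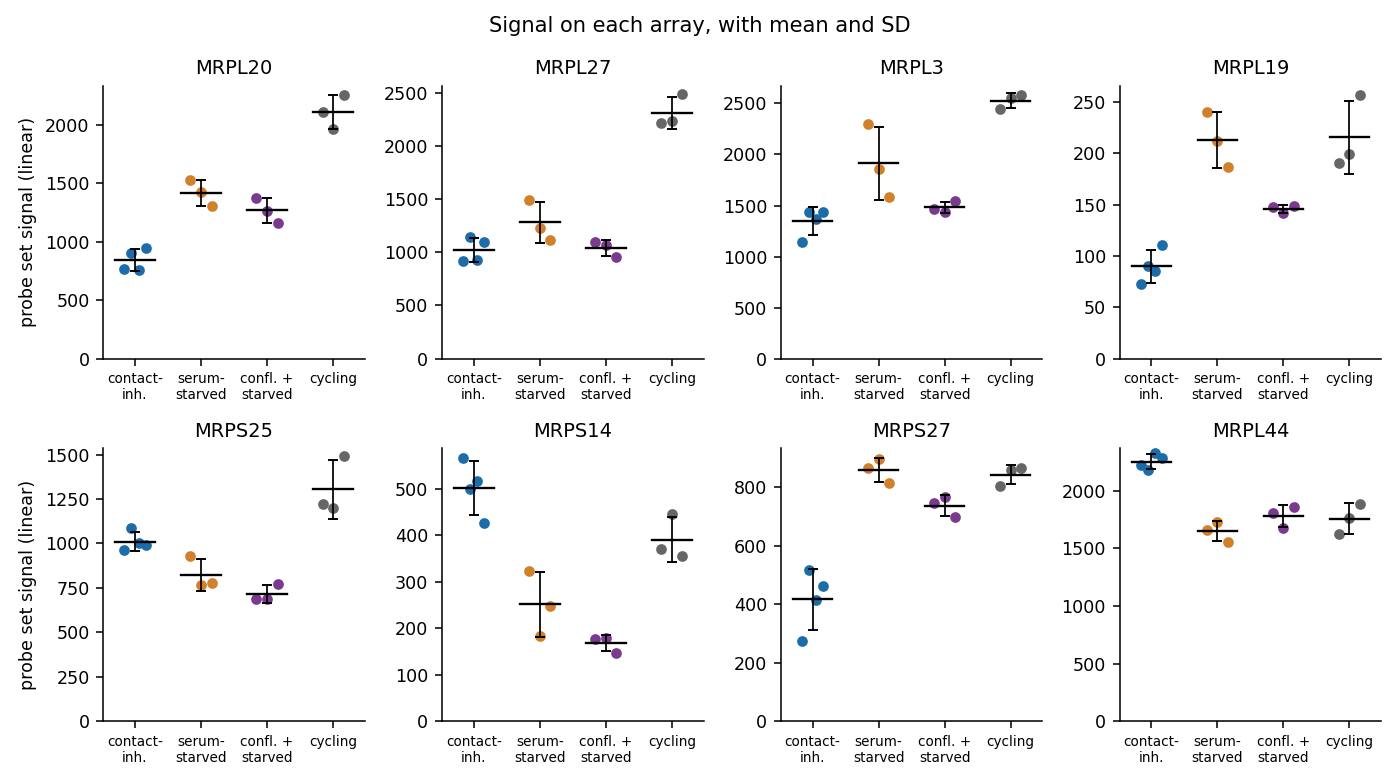
Probe set signal on a linear axis from 0 for 8 genes, with 1 point per array and a bar for the mean and SD of each group (n = 4 contact-inhibited, 3 in each other group). MRPL20, MRPL27 and MRPL3 are lower in all arrested groups, MRPS27 is lowest in contact-inhibited cells, MRPL44 is highest in contact-inhibited cells, and MRPS14 is low where serum was removed.

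Removing serum from confluent cells was assessed by comparing confluent and starved with contact-inhibited cells. Apart from contact-inhibited replicate 1, these groups also differed in W-linked level. Telling that level from serum removal rests on this array alone. Of the 65 genes 5 were lower and 6 higher, against 6.59% and 10.6% of all probe sets (17.2% together), shares close to that background, and the median change was 0.01. MRPS14 fell by 1.49 on the log2 scale (SE 0.17, adjusted p = 6.65e-05), or 2.82-fold. MRPS25 (-0.49 ± 0.12, adjusted p = 0.0104), MRPL44 (-0.34 ± 0.09, adjusted p = 0.0176), MRPS23 (-0.49 ± 0.14, adjusted p = 0.0237) and MRPL13 were the others lowered. With the W-linked covariate MRPS25 and MRPL44 did not pass (adjusted p = 0.167 and 0.0951), and with centred arrays MRPL44 and MRPS23 did not (adjusted p = 0.0834 and 0.0545). MRPS23 also missed it without any 1 of the confluent and starved arrays (adjusted p = 0.08, 0.0763 and 0.0583) and MRPL44 without replicate 1 or 2 of them (adjusted p = 0.0518 and 0.0894). MRPS23, a small subunit protein found only in mitochondria, had 619, 628 and 649 in confluent and starved arrays and 1061, 935, 796 and 810 in contact-inhibited arrays, with no overlap.

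MRPS27, a small subunit protein with pentatricopeptide repeats, had 747, 766 and 698 in confluent and starved arrays, 865, 898 and 814 in serum-starved arrays, 273, 518, 413 and 463 in contact-inhibited arrays, and 805, 857 and 865 in cycling arrays. All contact-inhibited arrays lay well below all others, replicate 1 the lowest. It was higher in confluent and starved than in contact-inhibited cells by 0.83 ± 0.17 (adjusted p = 0.00429), and by 0.65 without contact-inhibited replicate 1 (adjusted p = 0.000967). MRPL20 (0.58 ± 0.11, adjusted p = 0.00327), MRPL19 (0.62 ± 0.15, adjusted p = 0.012), MRPS30 (0.37 ± 0.12, adjusted p = 0.0436), MRPS36 and MRPL15 were higher too. MRPL20 did not pass with the mean of all its probe sets (0.04, adjusted p = 0.804), and its dimmer probe set was called lower (-0.40). MRPS30 had 2303, 2201 and 2188 in confluent and starved arrays and 1514, 1795, 1669 and 1955 in contact-inhibited arrays, and its call was lost without any 1 of the confluent and starved arrays (adjusted p = 0.138, 0.105 and 0.0932). The 11 calls became 5, 6 and 7 without confluent and starved replicates 1, 2 and 3, and 7 without contact-inhibited replicate 2. Their split of 5 lower and 6 higher was 2 and 6 with centred arrays, and 6 and 3 after quantile normalization.

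Between serum-starved and contact-inhibited cells, 6 of the 65 genes were lower and 7 higher in serum-starved cells. These groups differ in serum, in confluence and, apart from contact-inhibited replicate 1, in W-linked level, which cannot be told apart. Of all probe sets 7.50% were lower and 11.8% higher (19.3% together), and the shares of the 65 genes were close to that background. Their median change was -0.05, and after quantile normalization 11 of the genes were lower and 6 higher. MRPL19 (1.12 ± 0.15, adjusted p = 0.000192), MRPL20 (0.74 ± 0.11, adjusted p = 0.000496), MRPS27 (1.05 ± 0.17, adjusted p = 0.000734) and MRPS36 (0.53 ± 0.09, adjusted p = 0.000989) were higher, with MRPL3, MRPL15 and MRPS22. MRPL20 again did not pass with the mean of its probe sets (0.16, adjusted p = 0.291). MRPS14 (-0.98 ± 0.17, adjusted p = 0.00139), MRPL44 (-0.45 ± 0.09, adjusted p = 0.00282), MRPL57 (-0.54 ± 0.13, adjusted p = 0.0115) and MRPS2 (-0.53 ± 0.13, adjusted p = 0.0126) were lower, with MRPL13 and MRPL16. MRPS2 did not pass without serum-starved replicate 3 (adjusted p = 0.0695) or with the W-linked covariate (adjusted p = 0.0972). MRPL57, a large subunit protein found only in mitochondria, had 1306, 1299 and 1389 in serum-starved arrays and 2477, 1991, 1748 and 1663 in contact-inhibited arrays.

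Confluence in the absence of serum, read from confluent and starved against serum-starved cells, gave no call from limma among the 65 genes, against 0.478% of all probe sets lower and 0.485% higher (0.962% together). At an unadjusted p under 0.05 there were 8, 5 lower and 3 higher, against 13% of all probe sets, and with array weights 7 passed the adjusted threshold. No share of all probe sets was counted with array weights, so these 7 have no background beside them. The smallest adjusted p was 0.184, for MRPL19 at -0.50 ± 0.16 with a 95% interval of -0.84 to -0.15. MRPL27 was at -0.29 with an interval of -0.57 to -0.003, and MRPS9 at -0.08 with an interval of -0.38 to 0.21.

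The interaction tests whether confluence acts alike with and without serum, as its effect without serum minus its effect with serum. Arrays with serum had a higher W-linked level than those without, apart from contact-inhibited replicate 1. Serum and W-linked level therefore cannot be told apart here, and with that level as a covariate 19 genes were called. The interaction was positive for 55 of the 65 genes, with a median of 0.33 against -0.07 over all probe sets. It was called higher for 9 genes and lower for 1, against 5.96% and 4.85% of all probe sets (10.8% together). MRPL20 had the largest value of the 65, 1.15 ± 0.17 (adjusted p = 0.00084): it was -1.31 with confluence in serum and -0.16 ± 0.12 with confluence without serum. For MRPL27 the interaction was 0.88 ± 0.18 (adjusted p = 0.00763), with -1.17 in serum and -0.29 without. MRPS18A (0.64 ± 0.16, adjusted p = 0.023) and MRPL48 (0.62 ± 0.16, adjusted p = 0.0236) followed, and MRPL23, MRPL28, MRPL47, MRPS9 and MRPS26 were the others called higher. MRPS14 was the gene called lower, at -0.86 ± 0.25 (adjusted p = 0.0445), with 0.35 in serum and -0.51 without. The value for MRPL20 was 0.23 with the mean of all its probe sets (adjusted p = 0.346).

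The count of 10 moved with single arrays. It was 2 without confluent and starved replicate 1, 2 without its replicate 2 and 6 without its replicate 3. It was 6 and 3 without contact-inhibited replicates 2 and 3, 5 without cycling replicate 2 and likewise without cycling replicate 3, and 5 and 2 without serum-starved replicates 2 and 3. It was 16, all higher, with centred arrays, 3 (2 higher, 1 lower) after quantile normalization, and 26 with array weights. The median of the 65 genes stood above that of all probe sets by 0.39 as deposited, which centring cannot alter, and by 0.22 after quantile normalization. Centring itself moved the median of all probe sets by 0.14.

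**Figure D4:**
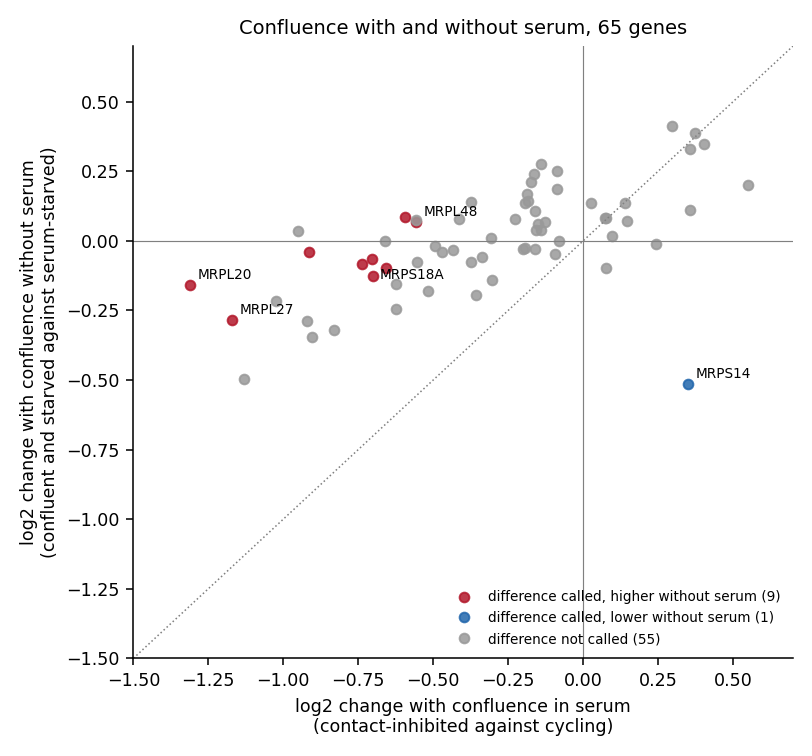
Each point is 1 of the 65 genes, with the log2 change from confluence in serum on the x axis (contact-inhibited against cycling) and that without serum on the y axis (confluent and starved against serum-starved), groups that share no array. Most genes lowered on the x axis lie near 0 on the y axis, above the dotted line of equal change, and MRPS14 lies below it. Coloured points are the 9 genes called higher and the 1 called lower in the interaction. Arrays with serum had a higher W-linked level than those without, apart from contact-inhibited replicate 1.

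Large and small subunit genes were both among those lowered. In contact-inhibited cells 18 of 43 tested large subunit genes and 8 of 21 small subunit genes were lower, in serum-starved cells 15 and 6, and in confluent and starved cells 14 and 8. Of genes with a bacterial counterpart 12 of 36 were lower in contact-inhibited cells, against 14 of 28 found only in mitochondria. In serum-starved cells these counts were 12 and 9, and in confluent and starved cells 11 and 11. The difference between the classes was not tested. Signals of different probe sets cannot be compared as levels, since brightness depends on the probes. By brightness MRPL14, MRPL13 and MRPS17 were the highest, at geometric means of 3262, 3205 and 2517, and MRPL21, at 34.4, was the dimmest of the tested genes. MRPL21 was not called in any comparison, and its signal left little room above the filter at 22.7.

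By the annotation of the assembly bGalGal1.mat.broiler.GRCg7b, 5 members lie on the Z chromosome, of which male birds have a pair and females a single copy: MRPL17, MRPL50, MRPS27, MRPS30 and MRPS36. Against cycling cells 3 of the 5 were lower in contact-inhibited, 0 in serum-starved (limma, 0 at an unadjusted p under 0.05) and 1 in confluent and starved cells, against 173, 56 and 93 of all 897 tested Z-linked probe sets. In confluent and starved against contact-inhibited cells all 5 were positive, with a median of 0.28, and 3 were called higher. Over all Z-linked probe sets the median in that comparison was 0.11 and 15.8% were called higher. These groups differ in W-linked level, apart from contact-inhibited replicate 1. With that level as a covariate MRPS27 and MRPS30 kept their calls in this comparison. Its part in the Z-linked values was not tested further. MRPS11 and MRPL46 are neighbours in that assembly. MRPL46 was lower in contact-inhibited cells (-0.92 ± 0.15, adjusted p = 0.000357) and in confluent and starved cells (-0.77 ± 0.16, adjusted p = 0.00262), while MRPS11 did not pass (-0.15 ± 0.11 and -0.30 ± 0.12, adjusted p = 0.336 and 0.0733).

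Of the 67 genes 19 had several probe sets, and 16 had several that were tested. MRPL20 was the gene whose probe sets were called in opposite directions. Beside the probe sets that stand for a gene, 20 others were tested. Against cycling cells, such a dimmer one was called where the brighter one was not in 9 genes, lower in 7 and higher in 2. The largest of these changes was that of MRPL53, whose dimmer probe set was lower in contact-inhibited (-1.39), serum-starved (-0.62) and confluent and starved cells (-0.83), where the brighter one was at -0.30, -0.36 and -0.50. The others with a lower one were MRPL17 (-0.41), MRPL42 (-0.69) and MRPS33 (-0.42) in contact-inhibited, MRPL38 (-0.52) in serum-starved, and MRPL32 (-0.60) and MRPL43 (-0.67) in confluent and starved cells. A dimmer probe set of MRPS16 was higher in contact-inhibited (1.01), serum-starved (0.86) and confluent and starved cells (0.85), where the brighter one was at 0.08, -0.21 and -0.13. A dimmer probe set of MRPL37 was higher in contact-inhibited (0.76) and in confluent and starved cells (0.45), where the brighter one was at 0.30 and 0.61. The reverse also occurred. For MRPL3 the brighter one was lower in the 3 arrested groups (-0.91, -0.42 and -0.76), and the dimmer one was not called (0.08, 0.14 and 0.04). In serum-starved cells dimmer ones were likewise not called for MRPL20 (0.06 and -0.05), MRPL32 (-0.45), MRPL42 (0.09) and MRPS33 (0.19). The same held in confluent and starved cells for MRPL20 (-0.004 and -0.18) and MRPS33 (-0.17).

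In contact-inhibited, serum-starved, and confluent and starved cells, 16%, 6.53% and 12.1% of all probe sets were lower than in cycling cells. The shares higher were 18.8%, 10.1% and 17.5%, and these stand beside every list below. Of 5 listed subunits of the same ribosome that carry other names, 4 were tested. Of these the small subunit proteins CHCHD1, PTCD3 and AURKAIP1 were lower and DAP3 did not pass. CHCHD1 was at -1.51 ± 0.22 in contact-inhibited, -0.49 ± 0.24 in serum-starved (adjusted p = 0.185, not passed) and -0.78 ± 0.24 in confluent and starved cells. PTCD3 was at -1.23 ± 0.18, -0.62 ± 0.20 and -0.61 ± 0.20 in those groups, and AURKAIP1 at -0.66 ± 0.10, -0.78 ± 0.11 and -0.81 ± 0.11, each with an adjusted p of at most 0.0469. The interaction was called higher for all 3, at 1.22 for CHCHD1, 1.23 for PTCD3 and 0.63 for AURKAIP1. Of 22 tested factors that assemble the ribosome or modify its RNA, 11 were lower and 3 higher in contact-inhibited, 5 and 0 in serum-starved, and 10 and 2 in confluent and starved cells. The GTPase MTG2 (-1.003 ± 0.17, -0.83 ± 0.18 in contact-inhibited and in confluent and starved cells) and the RNA-binding FASTKD2 (-0.79 ± 0.15, -0.57 ± 0.16 and -0.86 ± 0.16 in the 3 arrested groups) were lower, and TFB1M, which methylates the small subunit RNA, was higher (0.66 ± 0.21 and 0.88 ± 0.23 in contact-inhibited and in confluent and starved cells).

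Other lists cover genes that act with the ribosome. Of 15 mitochondrial translation factors 2 were lower and none higher in contact-inhibited cells, 1 and 1 in serum-starved cells, and 3 and 1 in confluent and starved cells. The lowered shares were 13.3%, 6.67% and 20%, against 16%, 6.53% and 12.1% of all probe sets. The elongation factor GFM1 was lower (-0.67 ± 0.14, -0.51 ± 0.15 and -0.62 ± 0.15), and the release factor MTRF1L was higher in both starved groups (0.64 ± 0.18 and 0.84 ± 0.18 in serum-starved and in confluent and starved cells). Of 15 mitochondrial tRNA charging genes, 4, 2 and 4 were lower and 3, 0 and 2 higher in contact-inhibited, serum-starved, and confluent and starved cells. YARS2, the mitochondrial tyrosyl-tRNA synthetase, was lower in all 3 (-0.69 ± 0.12, -0.79 ± 0.12 and -0.86 ± 0.12). GATB was higher in contact-inhibited (0.58 ± 0.15) and in confluent and starved cells (0.72 ± 0.17). FARS2 was higher in contact-inhibited cells (0.63 ± 0.17) and IARS2 in confluent and starved cells (0.46 ± 0.12). Of 29 genes of mitochondrial import and folding, 12, 5 and 9 were lower and 1, 1 and 1 higher. The higher gene was TOMM20 in each group (0.68 ± 0.18, 0.63 ± 0.19 and 0.84 ± 0.19). Of 61 genes of the respiratory chain and ATP synthase, 22, 19 and 24 were lower and 4, 0 and 1 higher. Cytochrome c, CYCS, was at -1.60 ± 0.14, -1.07 ± 0.15 and -1.62 ± 0.15. SDHD was higher in contact-inhibited (0.37 ± 0.10) and in confluent and starved cells (0.37 ± 0.11).

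The proteins of the cytosolic ribosome, which makes all nucleus-encoded proteins, gave other counts. Of 59 tested genes, 0, 0 and 1 were lower and 6, 0 and 6 higher in contact-inhibited, serum-starved, and confluent and starved cells, with median changes of 0.04, -0.02 and 0.03. The single gene lowered was RPS13 (-2.41 ± 0.15 in confluent and starved cells, adjusted p = 1.96e-07). With these, the lowered share of mitochondrial ribosomal protein genes, 41.5%, 32.3% and 35.4%, stands beside 0%, 0% and 1.69% of cytosolic ones. The difference between the lists was not tested.

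**Figure D5:**
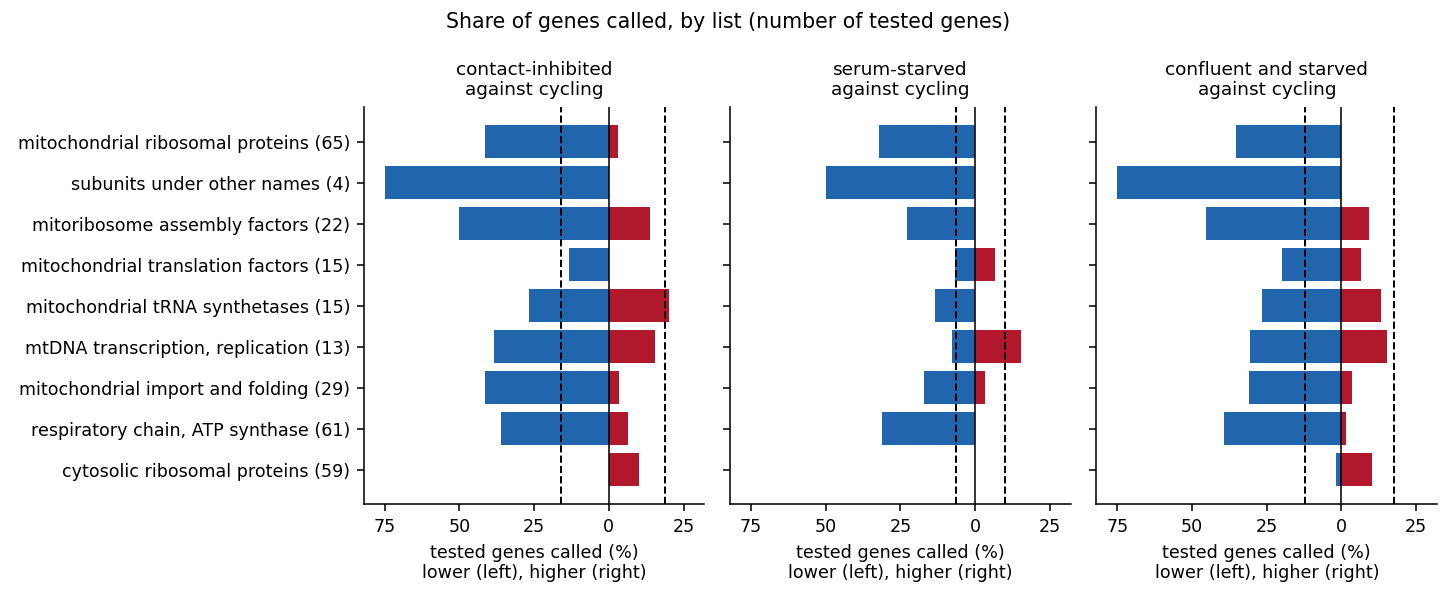
Bars give the percent of tested genes called lower (blue, to the left) and higher (red, to the right) in each list and arrested group against cycling cells, with the number of tested genes in brackets. Dashed lines mark the percent of all 28270 probe sets called lower and higher. The mitochondrial ribosomal proteins reach 41.5%, 32.3% and 35.4% on the left, and the cytosolic ribosomal proteins at most 1.69%.

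Among 15 genes for transcription and replication of mitochondrial DNA on the list, 13 were tested, with 5, 1 and 4 lower and 2, 2 and 2 higher in the 3 groups. The mitochondrial DNA helicase, listed as C10orf2, was lower in all 3 (-1.57 ± 0.16, -0.81 ± 0.17 and -1.48 ± 0.17). MTERF2 (0.84 ± 0.13, 0.51 ± 0.14 and 0.54 ± 0.14) and POLG2 (0.56 ± 0.14, 0.58 ± 0.15 and 0.60 ± 0.15) were higher in all 3. TFAM, which packs mitochondrial DNA and starts its transcription, was at -0.53 ± 0.12 in contact-inhibited (adjusted p = 0.00302), -0.37 ± 0.12 in serum-starved (adjusted p = 0.0566) and -0.47 ± 0.12 in confluent and starved cells (adjusted p = 0.0118). Of 9 tested regulators of mitochondrial gene expression, 2, 0 and 1 were lower and 1, 1 and 1 higher. The lowered shares were 22.2%, 0% and 11.1%, against 16%, 6.53% and 12.1% of all probe sets. The higher share was 11.1% in each group, against 18.8%, 10.1% and 17.5%. MYC, a growth-related transcription factor, was lower in contact-inhibited cells (-1.59 ± 0.20, adjusted p = 5.96e-05) and did not pass in serum-starved (0.42 ± 0.22) or confluent and starved cells (0.33 ± 0.22). The coactivator PPRC1 was lower in contact-inhibited (-1.23 ± 0.23) and in confluent and starved cells (-1.21 ± 0.25). TFEB, a regulator of lysosome genes, was higher in all 3 (1.16 ± 0.22, 0.86 ± 0.23 and 1.07 ± 0.23). NRF1 and GABPA, activators of nuclear genes for mitochondria, and PPARGC1A did not pass in any of the 3 comparisons. Of 13 tested markers of mitochondrial content, 5, 3 and 4 were lower and 2, 0 and 1 higher, with PHB lower in all 3 (-0.95 ± 0.10, -0.77 ± 0.11 and -0.76 ± 0.11). The higher ones were VDAC1 (0.58 ± 0.15) and SDHA (0.31 ± 0.11) in contact-inhibited and OPA1 (0.47 ± 0.15) in confluent and starved cells.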

How the data were processed

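Total RNA from 13 cultures, 15 µg each of RNA integrity 9.7 or better as stated in the labels, was hybridised to Affymetrix chicken arrays. The deposited values are probe set intensity on a linear scale, made by the authors with Affymetrix Expression Console 1.1 and PLIER, per the submitters' processing notes. Which PLIER options and array scaling were used is not given in the sources used here. No further normalization was applied. Median array signal was 50.5 to 66.5, within-group correlations were 0.941 to 0.993, and no arrays were identical. The number of arrays limits the precision.

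Values were analysed as log2(signal + 16), so changes of dim probe sets are understated. Chicken probe sets (37693 of 38535) had to reach a mean log2 at the 25th percentile (signal 22.7), which kept 28270 for testing. Probe sets with several symbols (177 of all) were not named. The 4 group means were fitted over 13 arrays with limma 3.58.1 in R 4.3.3 (lmFit, eBayes with trend, 9 residual and 4.33 prior degrees of freedom). Tests were two-sided and adjusted by Benjamini-Hochberg over all tested probe sets in each of 7 comparisons, with a threshold of 0.05. The procedure was also run on simulated arrays with independent normal noise and few changed probe sets. That setting is unlike these data, so the run says little about the counts here. Figures were drawn with matplotlib 3.10.9.

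The members, gene lists, markers and alternatives were chosen with earlier results of these data known. Genes named with values are, in each comparison with cycling cells, up to 6 called lower and 6 higher with the smallest adjusted p, up to 4 in each direction in the other comparisons, the 3 brightest and 3 dimmest, those with opposed probe sets, up to 2 a direction from each other list, and selected regulators. Gene symbols came from the array annotation, and the assembly named in the text gave sex chromosomes and neighbours. Alternatives were a filter at the median or none, offsets 1 and 64, centred arrays, quantile normalization, array weights, eBayes lacking a trend, averaging all of a gene's probe sets, the compared arrays alone, a replicate block, each array left out, cycling replicate 3 and contact-inhibited replicate 1 left out together, and the W-linked level as a covariate.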

Additional observations from a re-analysis of the deposited data

Results flagged for a closer look

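The following differences between the effect of confluence without serum and that with serum passed the test of the difference itself (limma interaction). Over the 65 tested genes 10 passed, 9 higher and 1 lower. Serum and W-linked level cannot be told apart in this test. The interaction was 1.15 for MRPL20, 0.88 for MRPL27, 0.64 for MRPS18A, 0.62 for MRPL48 and -0.86 for MRPS14 on the log2 scale. The value for MRPS14 lost the threshold without any 1 of 10 of the 13 arrays (all but contact-inhibited replicate 4, cycling replicate 2 and serum-starved replicate 2) and with centred arrays (-0.73, adjusted p = 0.0816), and the value for MRPL20 with the mean of its probe sets (0.23, adjusted p = 0.346). The values for MRPS18A and MRPL48 lost it after quantile normalization (adjusted p = 0.0875 and 0.0874), with the replicate block (adjusted p = 0.0542 and 0.0533) and without some single arrays (largest adjusted p = 0.066 and 0.0668), and that for MRPL27 passed in every alternative run.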

How the results depend on the processing

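For 41 gene comparisons named above, 833 values were recomputed under the alternatives. Of these 767 kept direction and side of the threshold, 66 kept direction only, 35 of them among 305 with 1 array left out, and 0 turned direction. The 41 were picked by their adjusted p in these same arrays, so the kept directions are not independent support. The number of genes called with 1 array left out was 26 to 31 in contact-inhibited, 12 to 22 in serum-starved and 19 to 24 in confluent and starved against cycling cells. It was 5 to 10 for confluent and starved against contact-inhibited, 0 to 0 against serum-starved, 9 to 12 for serum-starved against contact-inhibited cells, and 2 to 12 for the interaction. The 10 genes of the interaction became 5 with no filter, 16 with centred arrays, 3 with quantile normalization, 26 if arrays were weighted and 19 after adding the W-linked covariate. Array weights gave 20 for confluent and starved against contact-inhibited, 7 against serum-starved, and 27 for serum-starved against contact-inhibited cells. The share of all probe sets called was not counted under any alternative. Serum-starved against cycling cells had 10 with the compared arrays alone and 6 with the W-linked level, and confluent and starved against cycling cells 14 with the W-linked level. Without cycling replicate 3 and contact-inhibited replicate 1, confluent and starved against serum-starved cells had 1, against contact-inhibited cells 13, and the interaction 13. With the replicate block there were 7 for confluent and starved against contact-inhibited cells and 3 for the interaction. Replicate numbers showed no clear pairing of the arrays, though so few arrays cannot exclude one. Among 18 same-numbered pairs the correlation of deviations ranged from -0.293 to 0.382. The best match had the same number for 4 of 12 arrays. The causes were not tested.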
